A study of Mus musculus with 16 samples.

Results

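Genes for the proteins of the cytosolic ribosome were followed through ATAC-seq peak lists of male mouse germ cells. The set held 72 autosomal protein-coding genes of the 20665 that RefSeq annotates on assembly GRCm38. Members were taken by symbol: Rpl or Rps followed by digits, with an optional suffix of the a type, and the stalk genes *Rplp0*, *Rplp1* and *Rplp2*. Of these, 29 encode small subunit proteins, 40 encode other large subunit proteins and 3 encode the stalk. They lie on 18 of the 19 autosomes and are short, with a median length of 3179 bp against 17491 bp over all 20665 genes. The symbol rule uses no measured value.

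ATAC-seq marks open chromatin by letting a transposase insert sequencing adapters into accessible DNA. The germ cells came from testes of Mvh-Venus transgenic mice, a fluorescent reporter strain, and were either *Morc1* heterozygous (+/-) or *Morc1* knockout (-/-). *Morc1* encodes an ATPase of male germ cells that takes part in silencing transposons. Cells of both genotypes were taken in fetal life, at E13.5 and E16.5 (days of embryonic development), and after birth, at P0 and P3 (postnatal days), with 2 samples per stage and genotype, and all groups carry the reporter. No wild-type group is among the 16 samples, and the labels do not say whether 1 or several animals made up a sample.

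The authors deposited 1 peak list per stage and genotype, without a height, a score or a value per sample. The lists held 39559 to 67258 peaks, nearly all 501 bp wide, and their read depth is unknown. The heterozygous and knockout lists were identical at P0 and again at P3, so 6 distinct lists remained and the genotypes could be compared in fetal cells alone. With 1 list per group there was no spread between replicates and no test across samples. A peak within 1000 bp of an outer end of *Morc1* was present in all 6 lists, so the lists do not check the genotype labels. Of 6 germ-cell markers, 5 (*Ddx4*, *Dazl*, *Dnd1*, *Mael* and *Rnf17*) had a gene-end peak in all 6 lists and *Tdrd1* had one in none. A gene-end peak in at least 1 list was found at 3 of 5 Sertoli cell markers (*Wt1*, *Cldn11* and *Dhh*), at 1 of 5 Leydig cell markers (*Cyp11a1*) and at 1 of 3 endothelial markers (*Tek*), and *Sox9*, *Amh*, *Cyp17a1* and *Pecam1* were among those with none.

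Ribosomes are built from ribosomal RNA and about equal amounts of each ribosomal protein, and the protein genes are therefore transcribed strongly and together in growing cells. Their promoters are compact and rich in CpG, and in mammals they are known for binding sites of ETS factors such as GABP, of YY1 and of Sp1. Transcription typically starts at a C within a pyrimidine tract, and that tract at the head of the mRNA lets the cell tune its translation. Gonocytes, as male germ cells before spermatogenesis are called, stop dividing before birth and re-enter the cycle shortly after it.

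Promoter sequences were taken from RefSeq (GRCm38.p6) for 52 of the 72 members, which together have 62 listed starts. The 6 stretches below show the sequence elements that recur in the set. Each runs 5′ to 3′ on the gene's strand from 120 bases before the listed start, and the start is base 121 of 140. Capitals mark matches, on either strand, to the ETS family motif CCGGAAG, the YY1 motif AAGATGG, the Sp1 family motif GGGCGG, the TATA box TATAAA, and a short and a long pyrimidine-rich motif, CTTTCC for the short one and CTCTTTC for the long one. Both strands were searched. The pyrimidine-rich motifs can overlap each other, and the short one can overlap an Sp1 match on the other strand.
*Rps10* (chr17:27635225-27635364, minus strand): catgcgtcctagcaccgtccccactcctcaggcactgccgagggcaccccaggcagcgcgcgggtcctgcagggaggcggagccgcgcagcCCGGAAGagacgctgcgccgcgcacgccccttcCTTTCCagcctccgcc
*Rps6* (chr4:86857348-86857487, minus strand): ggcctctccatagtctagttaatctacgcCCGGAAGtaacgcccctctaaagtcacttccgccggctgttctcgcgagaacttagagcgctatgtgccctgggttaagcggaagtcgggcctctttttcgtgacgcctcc
*Rpl35* (chr2:39005112-39005251, minus strand): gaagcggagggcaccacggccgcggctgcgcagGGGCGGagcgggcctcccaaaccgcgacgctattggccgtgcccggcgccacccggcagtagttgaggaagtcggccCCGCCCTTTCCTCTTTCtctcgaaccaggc
*Rpl38* (chr11:114668460-114668599, plus strand): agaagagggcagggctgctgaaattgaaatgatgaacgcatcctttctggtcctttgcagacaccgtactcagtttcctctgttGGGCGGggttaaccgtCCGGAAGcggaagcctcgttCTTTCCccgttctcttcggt
*Rpl11* (chr4:136053374-136053513, minus strand): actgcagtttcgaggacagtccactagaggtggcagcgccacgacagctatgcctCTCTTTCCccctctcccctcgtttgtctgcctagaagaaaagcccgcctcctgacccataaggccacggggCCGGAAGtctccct
*Rps26* (chr10:128626487-128626626, minus strand): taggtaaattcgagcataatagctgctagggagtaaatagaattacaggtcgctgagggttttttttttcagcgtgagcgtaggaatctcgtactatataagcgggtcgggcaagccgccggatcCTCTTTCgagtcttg

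*Rps10* and *Rpl35* start at a C that lies within a pyrimidine tract, and the same holds for *Rps6*, whose protein is phosphorylated by the S6 kinases, and *Rpl38*, a gene known for its role in the translation of Hox mRNAs. Such a start, a C followed by at least 4 pyrimidines, was found at 13 of the 62 listed starts (21.0%) and at 2.23% of the 20085 starts of all autosomal protein-coding genes. The 13 were those of *Rps6*, *Rps10*, *Rps15a*, *Rps18*, *Rps21*, *Rps27*, *Rpl14*, *Rpl15*, *Rpl28*, *Rpl35*, *Rpl35a*, *Rpl38* and *Rplp2*. *Rpl11*, whose protein binds Mdm2 when ribosome assembly is disturbed, has no such start in this table, and its ETS match begins 7 bases from the start, counted from 1 at the start itself.

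In the windows of 300 bases, from 250 before to 50 after a start, CCGGAAG occurred in 23 of the 62 member promoters (37.1%) and in 11.9% of all 20085. AAGATGG occurred in 11 (17.7%) against 6.29%, and CTCTTTC in 20 (32.3%) against 7.79%. CTTTCC was found in 30 (48.4%) against 26.0%, and GGGCGG in 37 (59.7%) against 47.0%. TATAAA went the other way, with 4 (6.45%) against 12.7%, in *Rplp0*, *Rps2*, *Rps28* and *Rpl22*. At least 1 of the ETS, YY1 and long pyrimidine-rich motifs was found in 39 promoters (62.9%) against 23.8%. Windows of a gene with several starts overlap. Counted once per gene, CCGGAAG occurred in 22 of 52 members (42.3%) against 13.3% of 16457 genes, and CTCTTTC in 17 (32.7%) against 9.01%. Of the 26 distinct CCGGAAG sites in members, 24 or 25 lay under a peak in each list, as did 14 to 17 of the 17 distinct CTCTTTC sites. The counts were 6 to 8 of 9 for AAGATGG, 25 to 31 of 34 for CTTTCC and 42 to 44 of 46 for GGGCGG. For TATAAA the count was 4 of 5 in every list. A peak covered the start itself, whatever the motif, at 90.4% to 94.2% of the 52 members. The share of sites under a peak over all promoters is not given here. Median GC content was 58.8% in members and 57.0% over all promoters, and the median ratio of observed to expected CpG was 0.89 against 0.59. These matches are descriptions of letters and not evidence of binding.

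Peaks were first sought at the outer ends of each gene. A peak lay within 1000 bp of an end of 68 of the 72 genes (94.4%, 95% Wilson interval 86.6 to 97.8) in both E13.5 lists, against 60.0% of all autosomal protein-coding genes in heterozygous and 60.4% in knockout cells. At E16.5 the count was 67 (93.1%, interval 84.8 to 97.0) in both genotypes, against 61.1% of all genes in heterozygous and 62.0% in knockout cells. It was 65 (90.3%, interval 81.3 to 95.2) at P0, against 64.4%, and 65 at P3, against 59.5%. The intervals cover counting error over genes only, and those of the 6 lists overlap. The P0 list was the longest and met the largest share of all genes, and with the P3 list it met the smallest share of ribosomal protein genes. When gene ends were moved by 10000 bp in either direction, peaks met 18.1% to 25.7% of members and 12.1% to 16.0% of all genes.

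All 6 lists held a gene-end peak at 63 of the 72 members (87.5%), against 53.1% of all genes. No list held one at 4 members (5.56%), against 30.5% of all genes. Among small subunit genes the same 27 of 29 had a gene-end peak in every list. Among the 40 large subunit genes, 38 had one at E13.5 in both genotypes, 37 at E16.5 in both genotypes and 35 at P0 and P3, and 33 had one in all 6 lists. All 3 stalk genes had one in every list. So did all 17 genes of a list linked to Diamond-Blackfan anaemia, an inherited failure of red cell production, among them *Rps19*, *Rps26*, *Rpl5* and *Rpl11*. Of the 15 with a listed start, 14 (93.3%) had a peak within 1000 bp of a start in all 6 lists, against 56.1% of all genes. The exception was *Rpl18*.

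**Figure D1:**
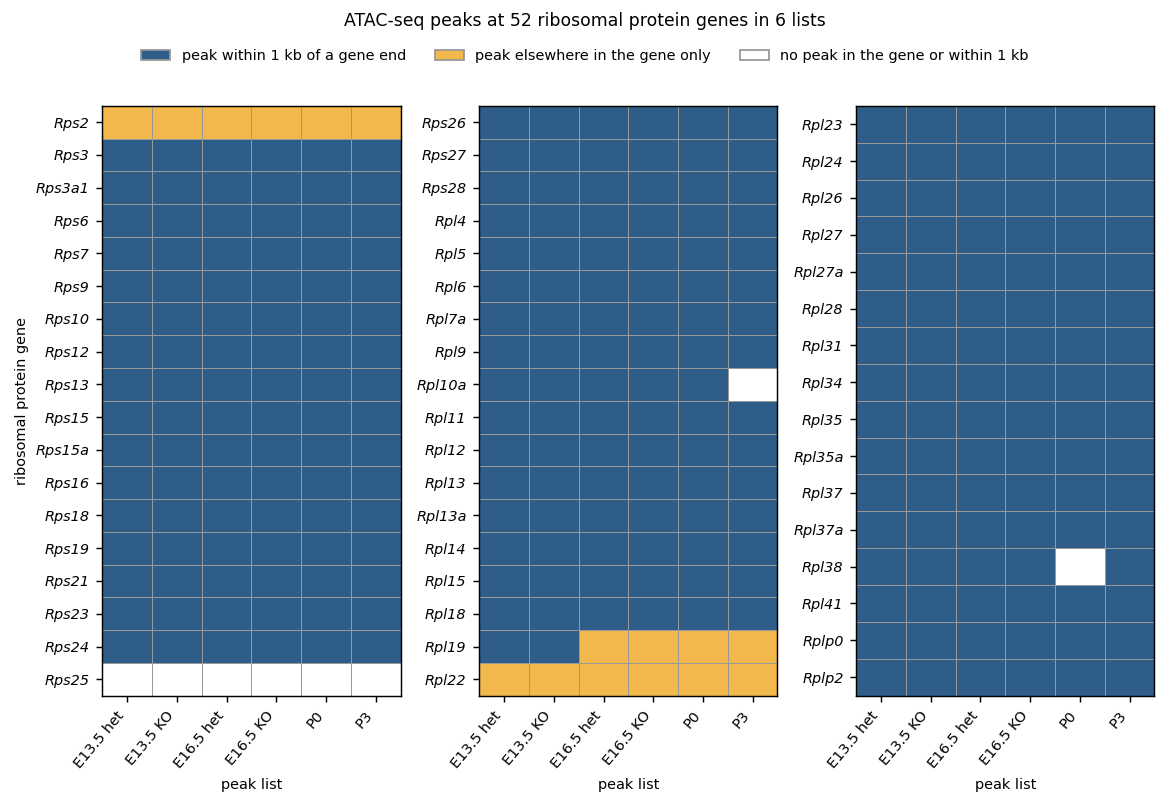
Each row is 1 of the 52 ribosomal protein genes with a listed start and each column 1 of the 6 distinct peak lists; blue marks a peak within 1000 bp of a gene end, orange a peak elsewhere in the gene only, and white no peak in the gene or within 1000 bp of it. Blue fills all 6 columns in 46 rows, and only *Rps25* is white in all 6.

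Other families of widely used genes stood at a similar level. A gene-end peak in all 6 lists was found at 69 of 78 mitochondrial ribosomal protein genes (88.5%), 60 of 68 translation initiation and elongation factor genes (88.2%), 33 of 39 proteasome subunit genes (84.6%) and 19 of 20 ribosome biogenesis genes. Keratin genes, which serve epithelia, had 1 of 53 (1.89%). The share of keratin genes with a gene-end peak varied between lists from 9.43% in E16.5 heterozygous cells to 52.8% at P0. Ribosomal protein genes moved between 90.3% and 94.4% over the same lists. The families were not tested against each other.

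**Figure D2:**
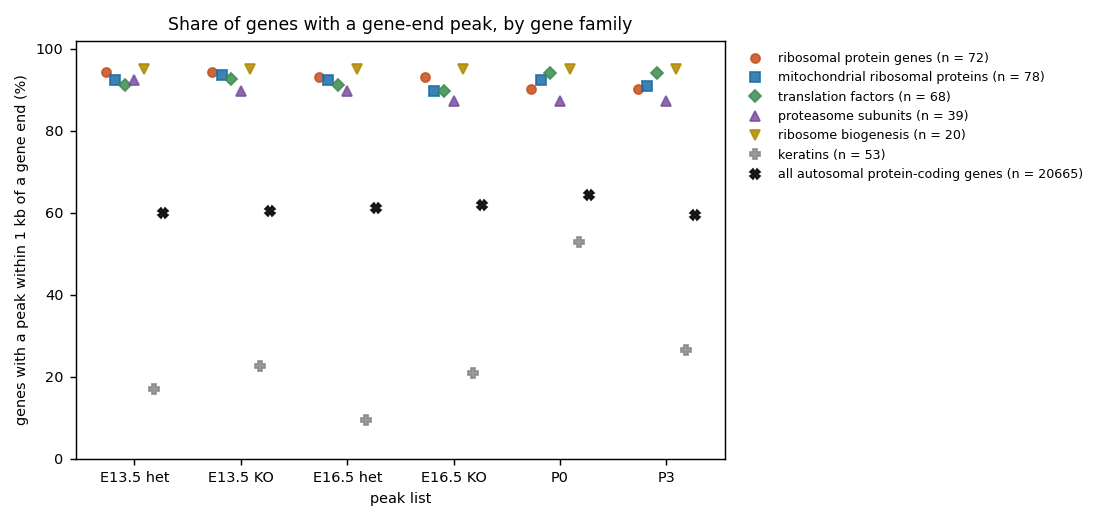
The vertical axis gives the percentage of genes with a peak within 1000 bp of a gene end and the horizontal axis the 6 peak lists; each symbol is 1 gene family, with small sideways offsets for legibility. Ribosomal protein genes lie between 90.3% and 94.4%, near the other widely used families and above the 59.5% to 64.4% of all genes.

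The 4 genes without a gene-end peak were *Rps2*, *Rps25*, *Rpl17* and *Rpl22*. In 3 of them the peak lay farther inside the gene in every list. *Rpl22*, which has a paralog called *Rpl22l1*, is annotated from 152324436 on chromosome 4, and its start peak began 1109 to 1140 bp inside that end, just beyond the window. Measured from its other listed start, at 152325726, the peak centre lay 69 to 100 bp downstream. *Rps2* (chromosome 17, 24718121 to 24721927) has its listed start at 24720063, and the peak centre lay 90 to 137 bp upstream of it in the 6 lists. *Rpl17* (chromosome 18) has no listed start here, and its peak began 1353 to 1390 bp inside the lower end. Among members inside the window, the largest gap between a peak's edge and a gene end was 588 bp, at *Rpl7* in the P0 list, followed by 532 to 583 bp at *Rpl38*.

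When peaks anywhere in a gene or within 1000 bp of it were counted, a choice made after seeing the data, 67 of 72 members (93.1%) had one in all 6 lists against 63.5% of all genes. Gene length enters this measure, and members are the shorter genes. *Rps25* was then the only member without a peak in any list. It lies at 44407714 to 44410406 on chromosome 9, and the nearest peak was 7328 to 7375 bp away in the 6 lists. The stretch around it without a listed peak runs from 44305795 to 44417733, over 111.9 kb, and 9 genes lie inside it, *Rps25* among them. Of 1870 autosomal stretches as long, 29 held as many genes. The absence is therefore shared with neighbouring genes and is not particular to *Rps25*. Why no peak is listed there was not tested.

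The 6 promoters below are examples whose peaks departed from the common pattern, shown in the same form: *Rpl18*, *Rpl41* and *Rpl10a*, which lacked a start peak in some lists, *Rps2* and *Rpl22*, whose listed start lies inside the gene's outer bounds, and *Rps25*.
*Rpl18* (chr7:45717951-45718090, plus strand): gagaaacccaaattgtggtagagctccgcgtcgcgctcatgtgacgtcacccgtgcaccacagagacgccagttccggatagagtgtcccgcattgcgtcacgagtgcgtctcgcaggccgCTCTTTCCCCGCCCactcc
*Rpl41* (chr10:128549149-128549288, minus strand): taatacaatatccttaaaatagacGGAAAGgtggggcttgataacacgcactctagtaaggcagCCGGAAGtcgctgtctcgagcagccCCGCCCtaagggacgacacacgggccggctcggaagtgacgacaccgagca
*Rpl10a* (chr17:28328351-28328490, plus strand): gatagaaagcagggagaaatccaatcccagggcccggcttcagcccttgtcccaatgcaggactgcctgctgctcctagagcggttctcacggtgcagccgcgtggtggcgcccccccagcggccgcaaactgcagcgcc
*Rps2* (chr17:24719943-24720082, plus strand): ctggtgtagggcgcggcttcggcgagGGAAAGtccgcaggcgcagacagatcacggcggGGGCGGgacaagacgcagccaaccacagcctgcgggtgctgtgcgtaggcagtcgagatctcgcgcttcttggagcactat
*Rpl22* (chr4:152325606-152325745, plus strand): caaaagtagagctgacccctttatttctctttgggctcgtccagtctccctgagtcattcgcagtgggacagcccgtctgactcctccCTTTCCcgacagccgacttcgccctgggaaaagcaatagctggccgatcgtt
*Rps25* (chr9:44407594-44407733, plus strand): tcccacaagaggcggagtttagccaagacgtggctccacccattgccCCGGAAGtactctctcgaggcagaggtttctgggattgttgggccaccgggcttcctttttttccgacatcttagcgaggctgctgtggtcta

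The *Rps25* stretch holds an ETS match that begins 73 bases before the start and no other of the searched motifs, as is the case for *Rps6*, which had a start peak in all 6 lists. *Rpl18* has CTCTTTC from its second base on. *Rpl10a* has no match within these 140 bases.

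At the 52 members with a listed start, a peak lay within 1000 bp of a start in 50 of 52 (96.2%) in E13.5 heterozygous cells, against 61.8% of 16457 genes with a listed start. In E13.5 knockout cells the count was 51 (98.1%) against 62.2%. At E16.5 it was 49 (94.2%) against 62.6% in heterozygous cells and 50 (96.2%) against 63.4% in knockout cells. At P0 it was 49 against 65.1%, and at P3 it was 50 against 61.1%. In all 6 lists 47 members (90.4%) had a start peak, against 56.1% of all genes, and 1 member (1.92%), *Rps25*, had none in any list, against 30.9%. *Rps2*, *Rpl19* and *Rpl22*, which failed by their outer ends, had a start peak in all 6 lists.

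Peak centres lay close to the start. The median distance was 58.5 bp in E13.5 heterozygous cells (n = 50 genes), 78.0 bp in E13.5 knockout cells, 74.0 and 61.0 bp in heterozygous and knockout cells at E16.5, 65.0 bp at P0 and 59.5 bp at P3. Over all genes with a start peak the median was 90.0 to 97.0 bp. A centre within 250 bp of the start was found at 95.9% to 100% of the members with a start peak and at 83.2% to 86.3% of all such genes. Between 46.9% and 62.7% of member centres lay upstream of the start, against 49.0% to 52.0% over all genes. At the start itself, a peak covered 90.4% to 94.2% of the 52 members and 52.4% to 54.1% of all genes, and at 1000 bp on either side it covered none of the members and 0.930% to 1.59% of all genes.

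**Figure D3:**
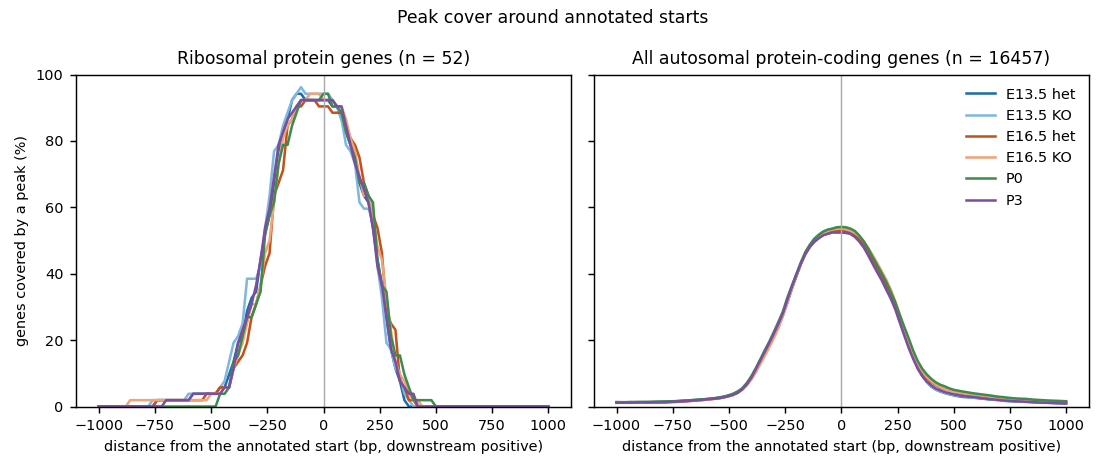
The horizontal axis is the distance in bp from the annotated start (downstream positive) and the vertical axis the percentage of genes covered there by a peak; each line is 1 peak list, with the 52 ribosomal protein genes on the left and 16457 protein-coding genes on the right. Cover at the start is 90.4% to 94.2% on the left and 52.4% to 54.1% on the right, and the lines of the 6 lists nearly coincide in each panel.

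The genes with the smallest mean distance over the lists were *Rps10* (19.8 bp), *Rps15a* (19.8 bp) and *Rpl31* (20.5 bp). At *Rps10*, which encodes a protein at the head of the small subunit, the centre lay 42, 9, 10 and 15 bp upstream in E13.5 heterozygous, E13.5 knockout, E16.5 heterozygous and E16.5 knockout cells, and 30 and 13 bp upstream at P0 and P3. The centre of *Rps15a* lay between 48 bp upstream (P3) and 3 bp downstream (E13.5 heterozygous cells). At *Rpl31* it lay 87 bp upstream in E16.5 heterozygous cells and within 17 bp of the start in the other 5 lists. These 3 peaks therefore sat over the start in every list.

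The largest mean distances belonged to *Rpl4* (457 bp), *Rps26* (213 bp) and *Rplp2* (206 bp). The *Rpl4* centre lay 464 to 611 bp upstream in 5 lists and 137 bp downstream at P0. Ends of *Zwilch* and *Snapc5* lie within 1000 bp of those of *Rpl4*, so its peak cannot be assigned to *Rpl4* alone. At *Rps26* the centre stayed 195 to 229 bp upstream in all 6 lists, and its CCGGAAG match begins 214 bases before the start. *Rplp2*, a stalk gene, had its centre 135 to 273 bp upstream. Over the 47 members with a start peak in all 6 lists, the centre moved over a median of 68.0 bp between its outermost positions, with a range of 18 to 748 bp, and over 9237 genes it moved over 90.0 bp. The narrowest spread, 18 bp, was found at *Rps3* and *Rpl15*, and the widest at *Rpl4*.

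**Figure D4:**
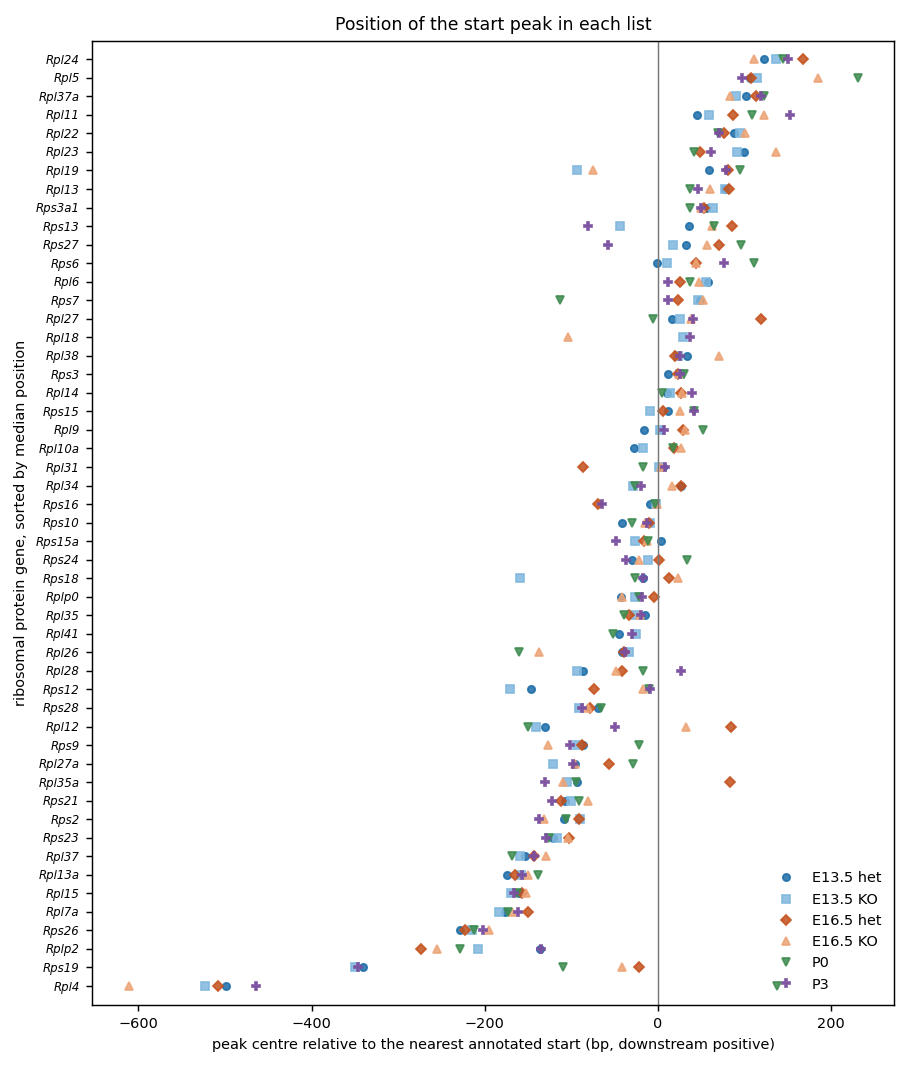
Each row is a ribosomal protein gene with a start peak, sorted by its median position, and each symbol is the peak centre in 1 of the 6 lists, in bp from the nearest annotated start (downstream positive). Most centres lie within 250 bp of the start; *Rpl4* and *Rps19* reach beyond 300 bp upstream in several lists.

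Among the members chosen by name, *Rplp0*, which encodes the base of the stalk and often serves as a reference transcript, had its centre 5 to 43 bp upstream in all 6 lists. *Rpl5*, whose protein forms a complex with Rpl11, had its centre 97 to 114 bp downstream in 4 lists, 185 bp in E16.5 knockout cells and 231 bp at P0. At *Rpl24*, the gene mutated in Belly spot and tail mice, it lay 111 to 167 bp downstream. *Rps19*, the gene most often mutated in Diamond-Blackfan anaemia, has 3 listed starts. Its centre lay 341 and 350 bp upstream of the first at E13.5, 22 bp in E16.5 heterozygous cells, 110 bp at P0 and 346 bp at P3, and in E16.5 knockout cells it lay 41 bp upstream of a later one. The P3 position lay between those of the E13.5 lists. *Rps27a*, which encodes a ubiquitin fusion, and *Rps14*, lost in a human marrow disorder, have no listed start here, and each had a gene-end peak in all 6 lists. The *Rps27a* peak lay at the upper end, with its centre 2 to 65 bp from it, and the *Rps14* peak at the lower end, at 31 to 119 bp.

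*Rpl11* and *Rps6* had centres that lay farther downstream at later stages. At *Rpl11* the centre lay 45 and 59 bp downstream of the start in E13.5 heterozygous and knockout cells, 87 and 123 bp at E16.5, 109 bp at P0 and 152 bp at P3. At *Rps6* it lay 1 bp upstream and 11 bp downstream at E13.5, 44 bp downstream in both genotypes at E16.5, 111 bp at P0 and 76 bp at P3. Over the whole set, 32 of 49 centres (65.3%) lay farther downstream at E16.5 than at E13.5 in heterozygous cells, against 48.1% over all genes. In knockout cells 33 of 50 (66.0%) did, against 49.9%. The median move was small, 11.0 bp in heterozygous and 13.0 bp in knockout cells. From E16.5 to P0 the split was near even, with 51.1% of members moving downstream from the heterozygous list and 46.8% from the knockout list. Measured from the E13.5 heterozygous list, 56.2% lay farther downstream at P0, with a median move of 5.0 bp, and 49.0% at P3, with a median of 0.0 bp. No replicate list exists against which moves of this size could be measured. The distance between heterozygous and knockout centres of the same member had a median of 12.0 bp at E13.5, where that of all genes was 18.0 bp. In the E16.5 lists these medians were 24.0 and 26.0 bp.

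Taking each gene as a whole, with a peak at either end, no member differed between the genotypes. At E13.5, 0 of 72 members had a gene-end peak in knockout cells only and 0 in heterozygous cells only, against 2.06% and 1.69% of all genes. At E16.5 the counts were again 0 and 0, against 2.92% and 2.01%. Shares of this size correspond to about 1 or 2 genes in a set of 72. Single ends did differ at 2 genes that kept a peak at their other end. *Rpl5* had an upper-end peak at E13.5 in knockout cells only, and *Rps18* a lower-end peak at E16.5 in heterozygous cells only. The share of all genes with such a single-end difference is not given here, so these 2 cannot be set against it. An end of *Dipk1a* lies within 1000 bp of an end of *Rpl5*, and ends of *B3galt4* and *Vps52* within 1000 bp of those of *Rps18*. By listed starts the genotypes differed at 1 member, *Rpl18*, which had a start peak in knockout cells only at both stages. Knockout-only start peaks were found at 1.64% of all genes at E13.5 and 2.44% at E16.5, and heterozygous-only start peaks, of which members had 0, at 1.18% and 1.60%.

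*Rpl18* (chromosome 7, 45715467 to 45720835) encodes a large subunit protein and has its listed start at 45718071. The start peak had its centre 29 bp downstream in E13.5 knockout cells, 104 bp upstream in E16.5 knockout cells and 37 bp downstream at P3. Neither heterozygous list nor the P0 list held a peak there. All 6 lists held a peak at the lower outer end, where an end of *Fam83e* also lies within 1000 bp, so *Rpl18* counted as met by its gene ends throughout. Of 16457 genes, 28 (0.170%) had a start peak in both knockout lists and in neither heterozygous list, and 16 (0.0972%) had the reverse. No other of the 16457 shared its exact pattern over the 6 lists. Each of these calls rests on 1 peak being present or missing, without a height, and the P3 list carries no genotype.

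The remaining departures were by stage. *Rpl38* and *Rpl8* had a gene-end peak in every list but that of P0, a pattern of 0.368% of all genes. The *Rpl38* centre lay 34, 23, 20 and 71 bp downstream of the start in E13.5 heterozygous, E13.5 knockout, E16.5 heterozygous and E16.5 knockout cells and 26 bp downstream at P3. At P0 the nearest peak was 2952 bp from the gene. *Rpl8*, whose protein lies near the peptidyl transferase centre, had its peak at the lower end in 5 lists, and at P0 the nearest was 5131 bp away. The P0 list held the most peaks of the 6, and its read depth is unknown. Why it lacked a peak at both genes was not tested.

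*Rpl10a* and *Rpl36*, both on chromosome 17, had a gene-end peak in every list but that of P3, a pattern of 1.21% of all genes. *Rpl10a* had its centre 28 and 17 bp upstream of its first listed start at E13.5 and 19 and 27 bp downstream of it at E16.5. At P0 the centre lay 17 bp downstream of the second listed start, the nearest one, and 111 bp downstream of the first. At P3 the nearest peak lay 14721 bp away. *Rpl36* had 2 peaks in the gene or within 1000 bp of it in each of the first 5 lists, and at P3 the nearest lay 12573 bp away. Ends of *Micos13* and *Lonp1* lie within 1000 bp of *Rpl36*. The P3 list held 44760 peaks against 67258 at P0, and the part of that difference in these calls was not tested.

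*Rpl41*, which encodes the smallest ribosomal protein, and *Rpl19* changed which peak they had. *Rpl41* had a start peak 25 to 52 bp upstream of its start at E13.5 in both genotypes and at P0 and P3, and none in either E16.5 list. A second peak beyond its far end, beside *Zc3h10*, was present in all 6 lists and kept it counted by gene ends. Of all genes with a listed start, 38 (0.231%) showed this pattern. *Rpl19* had a peak 468 to 490 bp inside its lower outer end in both E13.5 lists and in no later list, while its start peak, within 95 bp of a listed start, was present in all 6. A gene-end peak in both E13.5 lists and no other was the pattern of 142 of the 20665 genes (0.687%).

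Most members had a single peak. Between 60 and 64 of the 72 had exactly 1 gene-end peak in a list, and 3 to 6 had 2 or more. The second peaks belonged to *Rps18*, *Rps19*, *Rpl4*, *Rpl5*, *Rpl13a* and *Rpl41*. An end of another annotated gene lay within 1000 bp of 46 of the 72 members, and 21 members hold a snoRNA gene, a small RNA that guides the modification of ribosomal RNA. Among the 26 members without a neighbouring end, 21 (80.8%) had a gene-end peak in all 6 lists, and among the 46 with one, 42 (91.3%) did. Peaks between neighbouring genes cannot be assigned to one of them from these lists.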

How the data were processed

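Accessible chromatin was measured by ATAC-seq in 16 samples, 2 per stage and genotype, grouped by their titles. Each of the 8 lists the authors deposited gives chromosome, start and end of peaks in bp, with no other unit or value. Per the submitters' processing notes the build was mm10 (GRCm38) and the tools included Bowtie2 2.3.4.1 and HOMER 4.10. The caller's threshold, the treatment of reads that map to several places and any pooling of replicates are not given in the sources used here. Ribosomal protein genes have many processed pseudogene copies, which repeat transcripts and not promoters.

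Peaks were matched to windows of 1000 bp on each side of gene ends or RefSeq starts, with 1 bp of overlap, in Python 3.11.15. Counts equalled those of bedtools 2.31.1 in 6 lists, and 200 of 200 planted peaks were found in a test on simulated data. Positions are 1-based. Where a gene has several listed starts, the nearest was used. Genes were named when they lacked a gene-end peak in any list, differed between genotypes, had the 3 smallest or largest mean distances, or belonged to a list of 10. The others were chosen after their values were seen. The members and lists were chosen with earlier results of these data known. Alternatives were windows of 250, 500 and 2000 bp, peak midpoints, starts only, added X-linked or otherwise named genes, and members without neighbours. Some genes and the results that need them are not reported here.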

Additional observations from a re-analysis of the deposited data

How the results depend on the processing

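No paired analysis was possible because the 2 replicates of a group share 1 list, and leaving out a replicate was not run for that reason. Nor was a stricter peak threshold, as no peak has a score. Read depth is unknown, so a missing peak is not evidence of closed chromatin. Of 114 recomputed values, 92 stayed within the 95% interval of the reported share or median, or within 1.5 times the reported count, and 22 did not. Settings marked as added were chosen after seeing the data.

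Windows of 2000 bp, which can only add genes, raised the gene-end share to 98.6% in both E13.5 lists and to 97.2% in both E16.5 lists. Listed starts alone gave 98.1% in E13.5 knockout cells and 96.2% at P3, over 52 genes. Leaving out members with a neighbouring gene end gave 80.8% at P0 and 21 genes with a peak in all 6 lists, of the 26 left. Counting peaks anywhere in the gene (added) gave 98.6% in the 4 fetal lists and 95.8% at P0 and P3. Counting gene ends or listed starts (added) gave 97.2% in both E16.5 lists. The number of members that differed between genotypes, 0 as reported, became 1 at E13.5 with windows of 500 bp, 2 at E13.5 and 1 at E16.5 with windows of 250 bp, and 1 at each stage by listed starts. The start shares and the median distances stayed within their intervals under all settings run for them.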

Other observations

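Ribosomal protein genes that the symbol rule left out had much the same peaks. The X-linked genes *Rpl10*, *Rpl36a*, *Rpl39* and *Rps4x* each had a gene-end peak in all 6 lists, as did *Rpsa*, which encodes the laminin receptor protein of the small subunit, and *Fau*. Of 7 protein-coding paralogs, 6 had a gene-end peak in all 6 lists: *Rpl3l*, *Rpl7l1*, *Rpl22l1*, *Rpl36al*, and *Rpl10l* and *Rpl39l*, which are known from the testis. The other, *Rps27l*, had one in no list, and nor did *Rpl32l*, *Rpl37rt* or *Rps27rt*.

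Pseudogene copies of the same genes had few peaks. Of 269 autosomal pseudogenes named after a ribosomal protein gene, 14 (5.20%) had a peak within 1000 bp of an end in each E13.5 list and at P3, against 5.63%, 5.41% and 11.0% of 9496 pseudogenes in E13.5 heterozygous cells, E13.5 knockout cells and at P3. The count was 22 (8.18%) and 24 (8.92%) in E16.5 heterozygous and knockout cells, against 12.1% and 12.8%, and 49 (18.2%) at P0, against 18.8%. All 6 lists held a peak at 3 of them, *Rpl5-ps2*, *Rpl19-ps6* and *Rpl26-ps3* (1.12%, against 2.77%). This comparison was chosen after seeing the data.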
